A study of Homo sapiens with 6 samples.

Results

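Axon guidance genes of the semaphorin, plexin, slit, ROBO, netrin, UNC5 and srGAP families were followed in HMEC-1 cells with a knockdown of SETD7. Members were all rows whose gene symbol belongs to one of these families by name, which gave 37 of the 18544 genes in the count table: 18 ligands (14 semaphorins, 2 slits, 2 netrins), 14 receptors (9 plexins, 3 ROBO genes, 2 UNC5 genes) and 5 srGAP rows. All 37 had enough counts to be tested. Genes of these families without a row, such as SLIT1, ROBO2 and SEMA3E, could not be followed. HMEC-1 is an immortalised human dermal microvascular endothelial line, grown here in MCDB131 medium with 5.5 mM glucose. Set7KD cells (n = 3 libraries) received a lentivirus with an shRNA against SETD7, a lysine methyltransferase of histone H3 lysine 4 and of other proteins, and NTC cells (n = 3 libraries) a lentivirus with a non-targeting shRNA. Both groups therefore share the cell line, the medium and viral delivery of an shRNA. The sources used here give neither the number of distinct hairpins nor whether the cells were a pool or a clone.

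Guidance cues were first described in growing axons and also steer endothelial cells. Class 3 semaphorins are secreted and signal mostly through complexes of a neuropilin and a class A plexin, class 4 semaphorins are membrane-bound and bind class B plexins among others, and SEMA7A is a lipid-anchored ligand of PLXNC1. Plexins act on small GTPases and the cytoskeleton, in most settings to pull the cell edge back. Slits are secreted ligands of ROBO receptors, srGAPs are GTPase-activating proteins that bind ROBO tails, and netrins signal through DCC, neogenin and UNC5 receptors. In vessels, PLXND1, ROBO4 and UNC5B are known as receptors of endothelial cells.

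Each of the 6 libraries held 16385878 to 16953331 gene counts, and the 37 members took 0.201 to 0.22% of them. Levels are given in CPM, read counts scaled to 1e6 per library, in which a single count was worth 0.0585 to 0.0618 CPM. SETD7 (ENSG00000145391.7) checked the labels: it stood at 27.8, 43.8 and 26.7 CPM in Set7KD, against 180.5, 178 and 176 CPM in NTC, a log2 fold change of -2.44 ± 0.21 (SE; adjusted p 0.000927 in edgeR's quasi-likelihood test). Every Set7KD library lay far below every NTC library. Of 10 endothelial markers listed, PECAM1 and CLDN5 had no row. The others, CDH5, TIE1, TEK, KDR, ERG, VWF, EMCN and ESAM, all had counts in both groups, ESAM at a mean of only 1.18 CPM. The summed level of these 8 rows was 357 to 394 CPM in Set7KD and 449 to 570 CPM in NTC, with 2 called higher and 2 lower. Fibroblast markers (4 rows of 5 genes listed, 3 called higher) summed to 702 to 908 CPM in Set7KD and 161 to 170.3 CPM in NTC. Most of this was COL1A2 (733 CPM in Set7KD and 149 CPM in NTC). COL3A1 and PDGFRA were also higher, and LUM was not called. Smooth muscle markers (4 of 4, 2 called higher) summed to 473 to 694 CPM in Set7KD and 123 to 161 CPM in NTC. Most of this was TAGLN (551 CPM in Set7KD and 96.3 CPM in NTC). CNN1 was also higher, and ACTA2 and MYH11 were not called. Lymphatic endothelial markers (2 rows of 4 genes listed, both lower) summed to 72.6 to 86.5 CPM in Set7KD and 103 to 108 CPM in NTC, and the leukocyte marker CD68 (1 of 2, lower) stood at 17.6 to 24.9 CPM in Set7KD and 30.9 to 32.7 CPM in NTC. Neuronal markers (4 rows, of which both TUBB3 rows were higher) summed to 147 to 176 CPM in Set7KD and 87.4 to 118 CPM in NTC. Most of this was TUBB3, whose rows averaged 78.8 and 80.4 CPM in Set7KD and 47.8 and 49.7 CPM in NTC. Whether the TUBB3 rows count the same reads was not tested. MAP2 and SYP were not called, and RBFOX3 had no row. Epithelial markers (3 of 4 listed) summed to 228 to 249 CPM in Set7KD and 219 to 262 CPM in NTC. No listed marker with a row had a group mean of 0. In such bulk libraries a change in the share of cells of a type and a change in RNA per cell cannot be told apart, and the part of these markers in the results below was not tested. No source used here states if each library had its own transduction, and p-values then speak only to library-to-library spread, which may be technical.

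The starts of PLXNA4, SLIT3, SLIT2 and ROBO4 are shown because they belong to the plexin and the slits that rose most and to the ROBO that fell most by fold. Each window runs from 250 bases before to 50 bases after the annotated start (RefSeq, GRCh38.p14), 5′ to 3′ on the strand of the gene; capitals mark the GC box GGGCGG and the SMAD core CAGAC on either strand. The PLXNA4 window lies at chr7:132576421-132576720 (minus strand), that of SLIT3 at chr5:169301090-169301389 (minus), that of SLIT2 at chr4:20251655-20251954 (plus) and that of ROBO4 at chr11:124897816-124898115 (minus).
PLXNA4: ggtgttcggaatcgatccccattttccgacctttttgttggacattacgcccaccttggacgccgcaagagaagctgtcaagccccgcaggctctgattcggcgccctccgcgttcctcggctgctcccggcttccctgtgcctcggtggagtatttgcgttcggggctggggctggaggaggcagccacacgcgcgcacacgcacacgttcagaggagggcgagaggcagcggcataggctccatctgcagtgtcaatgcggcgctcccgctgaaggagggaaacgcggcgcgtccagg
SLIT3: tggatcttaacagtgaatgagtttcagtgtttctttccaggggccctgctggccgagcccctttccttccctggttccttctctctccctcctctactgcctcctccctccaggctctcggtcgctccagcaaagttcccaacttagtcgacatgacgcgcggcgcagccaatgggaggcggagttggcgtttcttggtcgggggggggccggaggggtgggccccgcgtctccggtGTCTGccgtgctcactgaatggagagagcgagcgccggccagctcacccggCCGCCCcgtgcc
SLIT2: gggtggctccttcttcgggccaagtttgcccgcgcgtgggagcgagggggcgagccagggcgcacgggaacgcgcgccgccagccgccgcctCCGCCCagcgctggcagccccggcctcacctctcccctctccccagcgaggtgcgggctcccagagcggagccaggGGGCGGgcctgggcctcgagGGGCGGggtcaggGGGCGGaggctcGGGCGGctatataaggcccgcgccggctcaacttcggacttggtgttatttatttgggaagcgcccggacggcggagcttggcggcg
ROBO4: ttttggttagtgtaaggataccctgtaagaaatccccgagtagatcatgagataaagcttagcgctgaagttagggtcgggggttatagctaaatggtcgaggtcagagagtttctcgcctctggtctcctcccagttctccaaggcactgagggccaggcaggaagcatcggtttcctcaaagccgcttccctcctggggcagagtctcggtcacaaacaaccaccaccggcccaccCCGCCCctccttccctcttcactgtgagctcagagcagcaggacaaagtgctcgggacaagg

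The windows of PLXNA4, SLIT3, SLIT2 and ROBO4 held 30, 22, 36 and 11 CpG dinucleotides, where the median over 35116 windows of this length in the table was 14. The GC box occurred 0 times at PLXNA4, 1 time at SLIT3, 5 times at SLIT2 and 1 time at ROBO4, and 45% of all windows held at least 1. The SMAD core occurred 1 time at SLIT3 and 0 times in the other windows, and 45.3% of all windows held it. Which start these cells used was not measured, and these matches are a description of the letters only. The promoter table matched 33 of the 37 members, 20 of them with a single window.

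Both slit genes with a row also carry a microRNA hairpin in an intron, on their own strand. These are MIR218-1 within SLIT2 and MIR218-2 within SLIT3 (GENCODE 29, GRCh38). The hairpins give the same mature arm, shown with its seed (bases 2 to 8) in capitals because both host genes rose. Small RNAs were not measured in these poly-A libraries.
hsa-miR-218-5p: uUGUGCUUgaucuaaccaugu

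Of the 37 members, 9 were higher and 12 were lower in Set7KD at an edgeR adjusted p under 0.05, which is 56.8% of them. Among all 18482 genes tested, 36.2% were called, 17.6% higher and 18.6% lower. The members had a median level of 29.1 CPM, against 17.9 CPM over all genes, and whether their level accounts for the larger share called was not tested. Set7KD and NTC ranges were separate for 25 of the 37 members, where 47.4% of all tested genes showed this. The members did not move one way: their median log2 fold change was -0.02, against -0.01 over all tested genes, while their median absolute log2 fold change was 0.43, against 0.21. By class, 5 ligands were higher and 7 lower (median log2 fold change -0.18), 3 receptors were higher and 5 lower (median -0.12), and 1 srGAP row was higher (median 0.08). In edgeR 0 srGAP rows were lower, as in DESeq2, with 1 lower at an unadjusted p under 0.05 (SRGAP3) and 1 lower with the replicate number as a block. Changes of 2-fold or more were seen for 5 called members, PLXNA4, SLIT3 and SEMA3D upwards and UNC5A and SEMA3B downwards.

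**Figure D1:**
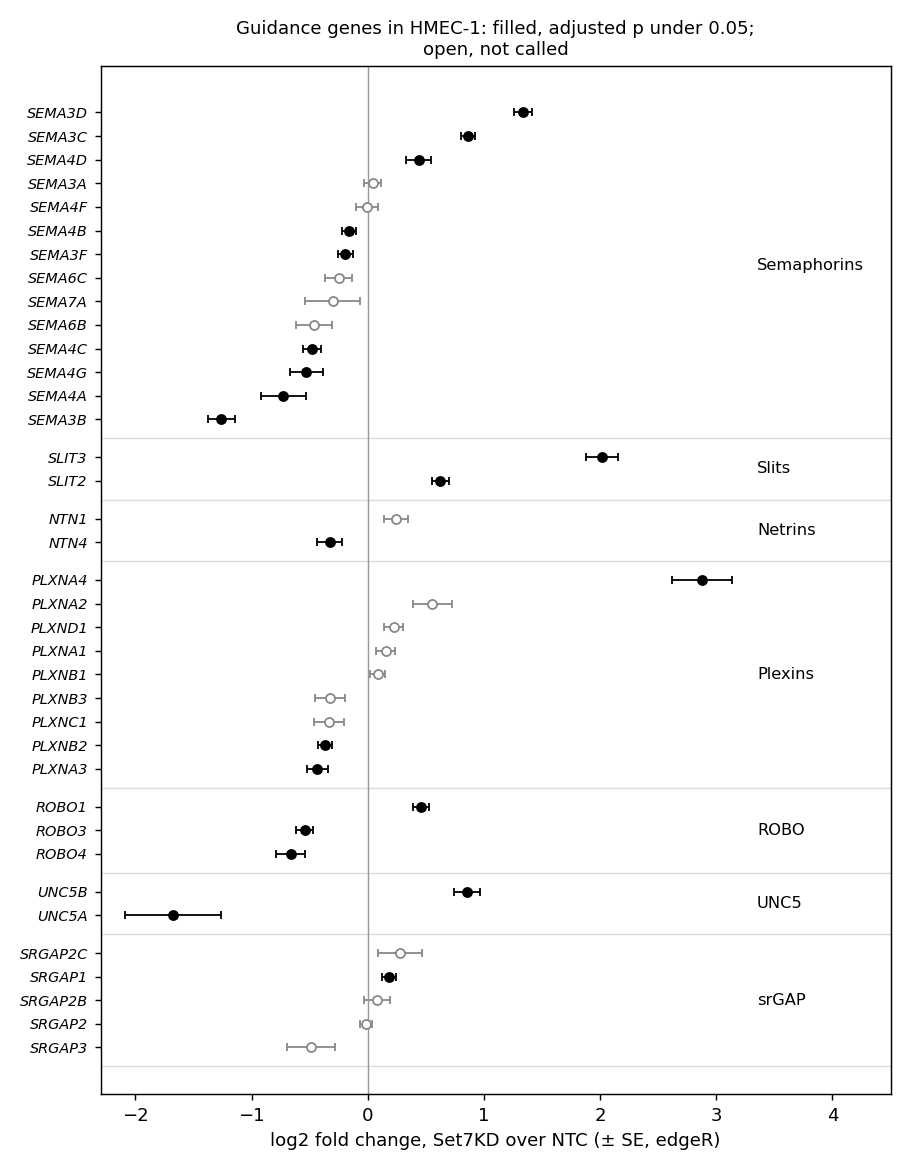
Log2 fold change (Set7KD over NTC) of the 37 guidance genes by family, with edgeR standard errors; filled points passed an adjusted p of 0.05 and open points did not. Members on both sides of 0 stand in every family except the slits, from PLXNA4 at 2.87 to UNC5A at -1.67.

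The levels of the members, divided by merged exon length to compare genes, spread over several orders of magnitude. PLXNB2 and NTN4 were the most abundant receptor and ligand in both groups, at 51.6 CPM per kilobase in Set7KD and 66.7 in NTC for PLXNB2, and at 46.4 in Set7KD and 58.3 in NTC for NTN4. Among semaphorins SEMA3C stood first in Set7KD, at 19.6 CPM per kilobase, with SEMA3F next at 16.1; in NTC SEMA3F stood first at 18.4, then SEMA6B at 13.2 and SEMA3C at 10.8. PLXND1 was the second plexin in both groups, at 19.3 CPM per kilobase in Set7KD and 16.5 in NTC. The lowest in Set7KD was UNC5A, at 0.0791 CPM per kilobase, against 0.258 in NTC. The lowest in NTC was PLXNA4, which stood at 0.646 CPM per kilobase in Set7KD, above UNC5A, SRGAP3, SEMA4A and SRGAP2C, and at 0.0877 in NTC. Lengths came from GENCODE 29 for 36 members; SRGAP2 had no entry under its identifier.

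**Figure D2:**
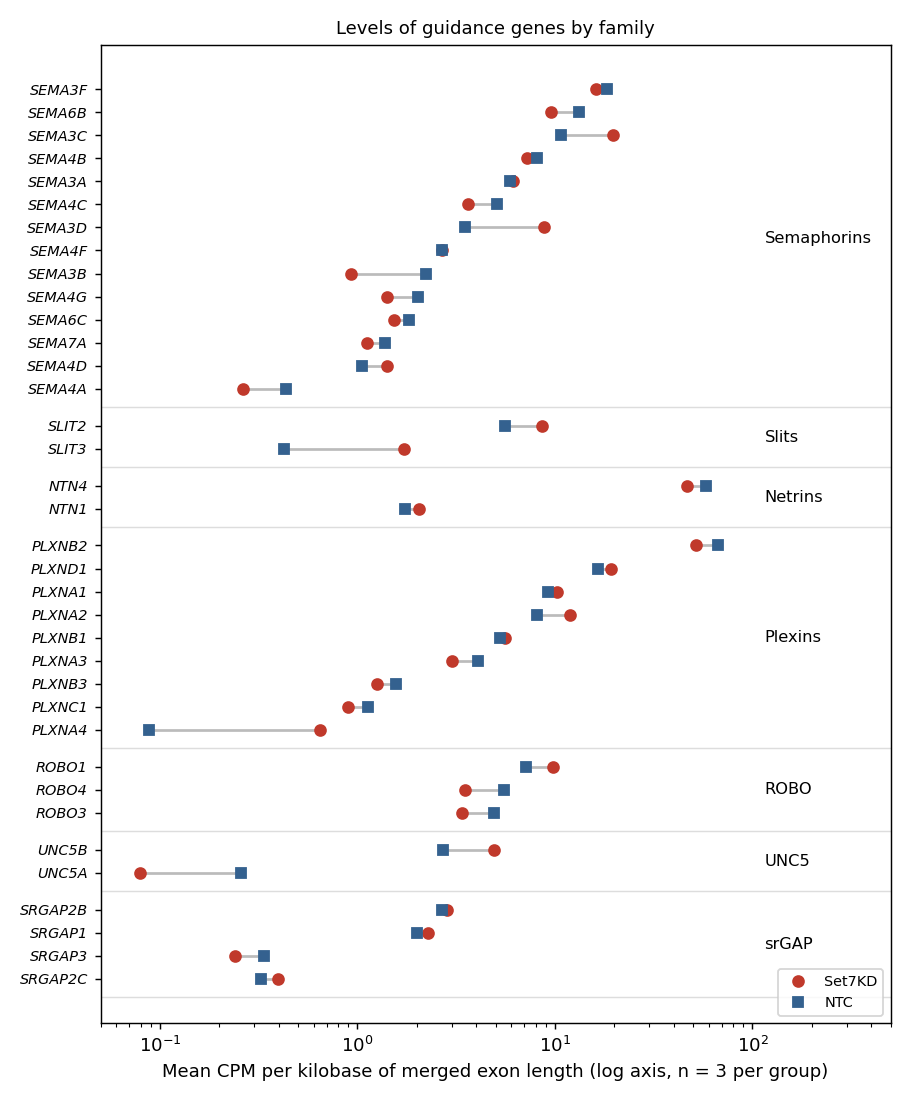
Mean level per kilobase of merged exon length in Set7KD (circles) and NTC (squares), on a log axis, for the 36 members with an annotated length. PLXNB2 and NTN4 lie at the top of the scale in both groups, and PLXNA4, SLIT3, UNC5A, SEMA3D and SEMA3B show the widest gaps between the groups.

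Among the secreted class 3 semaphorins with a row, 2 rose, 2 fell and 1 was not called. SEMA3D (ENSG00000153993.9), which in mice guides the patterning of pulmonary veins, stood at 77.9, 66.3 and 69.3 CPM in Set7KD, against 27.2, 27.0 and 30.2 CPM in NTC. All Set7KD libraries were more than double any NTC library, and the log2 fold change was 1.34 with a standard error of 0.08 (adjusted p 2.31e-08). SEMA3C (ENSG00000075223.9), a cue of cardiac outflow tract cells, reached 122, 122.5 and 124 CPM in Set7KD, against 61.6, 68.1 and 72.8 CPM in NTC. The Set7KD libraries lay close together and well apart from NTC, with a log2 fold change of 0.86 ± 0.06 (SE; adjusted p 1.54e-07).

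SEMA3B (ENSG00000012171.13), a semaphorin known as a candidate tumour suppressor on the short arm of its chromosome, fell. Its libraries held 5.81, 4.88 and 5.33 CPM in Set7KD, against 13.5, 12.8 and 12.1 CPM in NTC. The highest Set7KD library stood below 6 CPM and the lowest NTC library above 12 CPM, a log2 fold change of -1.26 ± 0.12 (SE; adjusted p 1.38e-06). SEMA3F (ENSG00000001617.7), a ligand of NRP2 that repels endothelial cells, gave 79.0, 72.9 and 81.2 CPM in Set7KD, against 96.8, 86.6 and 83.0 CPM in NTC. The groups were separate by a narrow margin, at a log2 fold change of -0.19 ± 0.07 (SE; adjusted p 0.0335), and the call was lost without NTC replicate 1 (adjusted p 0.203), Set7KD replicate 1 (0.0757) or Set7KD replicate 2 (0.101). SEMA3A, the ligand of NRP1 best known for collapsing growth cones, had 57.4 ± 6.36 CPM in Set7KD and 55.7 ± 1.58 CPM in NTC (SD, n = 3 each; adjusted p 0.687). The 5 class 3 genes summed to 331 to 340.1 CPM in Set7KD and 250.4 to 255 CPM in NTC. Per kilobase, SEMA3C and SEMA3D together made up 55.6, 54.9 and 54.9% of the class 3 level in the Set7KD libraries and 31.9, 35.2 and 37.7% in the NTC libraries.

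Of the 6 membrane-bound class 4 semaphorins, 4 fell, 1 rose and 1 was not called. SEMA4D (ENSG00000187764.7), the ligand of PLXNB1 that promotes vessel growth, was the one that rose: it stood at 21.7, 20.3 and 18.3 CPM in Set7KD, against 15.1, 16.7 and 12.8 CPM in NTC. No library of one group reached into the other, and the log2 fold change was 0.44 ± 0.11 (SE; adjusted p 0.00496). SEMA4C (ENSG00000168758.6), a ligand of PLXNB2, had 22.9, 21.5 and 22.9 CPM in Set7KD, against 33.6, 29.4 and 30.7 CPM in NTC. The Set7KD libraries were all lower, with a log2 fold change of -0.48 ± 0.08 (SE; adjusted p 0.000256). SEMA4G (ENSG00000095539.11) gave 7.38, 6.92 and 7.84 CPM in Set7KD, against 9.82, 8.97 and 13.2 CPM in NTC. NTC replicate 3 was the highest and the groups stayed apart, at -0.53 ± 0.14 (log2 fold change ± SE; adjusted p 0.00882). SEMA4G shares 1170 exon bases with MRPL43 on the other strand in GENCODE 29; MRPL43 stood at 46.2 CPM in Set7KD and 49.0 CPM in NTC and was not called (adjusted p 0.364). If reads were counted without strand, which is not given, those of this pair could not be told apart.

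The remaining class 4 genes changed little or were scarce. SEMA4A (ENSG00000196189.7), which has immune and vascular roles, had 1.88, 1.92 and 1.59 CPM in Set7KD and 2.98, 3.19 and 2.75 CPM in NTC. Its groups were separate at a low level, with a log2 fold change of -0.73 ± 0.19 (SE; adjusted p 0.00758). SEMA4B (ENSG00000185033.10) showed the smallest called fold, with 50.04, 51.8 and 49.9 CPM in Set7KD and 55.4, 57.0 and 57.5 CPM in NTC (log2 fold change -0.16 ± 0.06, SE; adjusted p 0.0401). These libraries did not overlap, but the call was lost without any single library except Set7KD replicate 2, with adjusted p between 0.074 and 0.133. SEMA4F averaged 16.7 ± 1.5 CPM in Set7KD and 16.8 ± 0.7 CPM in NTC (SD, n = 3 each; adjusted p 0.961). Without both replicate 1 libraries the call was also lost for SEMA4A (adjusted p 0.072), SEMA4D (0.101) and SEMA4G (0.0667), and for SEMA4G without both replicate 3 libraries (0.0557).

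Neither class 6 semaphorin with a row was called in edgeR, nor was SEMA7A. Both class 6 genes had an unadjusted edgeR p under 0.05 (0.0251 for SEMA6B and 0.0405 for SEMA6C). DESeq2 called SEMA6B (adjusted p 0.00138). SEMA6B had 45.6, 45.2 and 36.1 CPM in Set7KD and 57.7, 69.6 and 47.7 CPM in NTC, so that every Set7KD library was below every NTC library while NTC was widely spread (log2 fold change -0.46 ± 0.16, SE; adjusted p 0.0644). Blocking on the replicate number gave SEMA6B an adjusted p of 3.54e-05, and it passed without NTC replicate 2 (0.0439) or NTC replicate 3 (0.00148). SEMA6C averaged 8.93 ± 0.19 CPM in Set7KD and 10.6 ± 1.08 CPM in NTC (SD, n = 3 each; adjusted p 0.0936). SEMA7A, at 4.26 ± 0.7 CPM in Set7KD and 5.24 ± 1.77 CPM in NTC, had overlapping groups (adjusted p 0.356) and passed without NTC replicate 2 (0.0265).

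Both slits rose. SLIT3 (ENSG00000184347.10), a slit that is also made by vascular mural and endothelial cells, stood at 26.1, 20.7 and 26.6 CPM in Set7KD, against 5.56, 5.12 and 7.43 CPM in NTC. The lowest Set7KD library was far above the highest NTC library, and the fold was 4.05 (log2 fold change 2.02 ± 0.14, SE; adjusted p 2.68e-07). SLIT2 (ENSG00000145147.14), the slit most studied in vessels, reached 86.2, 81.2 and 82.2 CPM in Set7KD, against 49.8, 51.2 and 61.0 CPM in NTC. Groups were again separate, at a log2 fold change of 0.62 ± 0.07 (SE; adjusted p 1.21e-05). SLIT2 remained the more abundant slit: its level per kilobase was 4.86, 5.76 and 4.53 times that of SLIT3 in the Set7KD libraries and 13.2, 14.7 and 12.1 times in the NTC libraries. An antisense row over SLIT3, CTC-558O2.2, shares 334 exon bases with it and was higher as well, at 1.95 CPM in Set7KD and 0.375 CPM in NTC (adjusted p 0.00116). If reads were counted without strand, which is not given, those of SLIT3 and this row could not be told apart.

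The netrins were split. NTN4 (ENSG00000074527.7), a netrin of basement membranes that binds laminins, had 198, 168 and 214 CPM in Set7KD, against 249, 214 and 265 CPM in NTC. Set7KD replicate 3 and NTC replicate 2 were level, so the groups touched, and the log2 fold change was -0.33 ± 0.10 (SE; adjusted p 0.0395). Within each replicate number the Set7KD library was the lower one, and with the number as a block the adjusted p was 1.27e-05. Without the block the call was lost on leaving out NTC replicate 1 (0.109), NTC replicate 3 (0.075), Set7KD replicate 1 (0.0857) or Set7KD replicate 2 (0.0689). NTN1, the classic netrin of commissural axons, was not called, with 13.7, 12.5 and 13.0 CPM in Set7KD and 11.8, 10.4 and 11.1 CPM in NTC (log2 fold change 0.25 ± 0.10, SE; adjusted p 0.0715). The NTN1 groups did not overlap, and the blocked adjusted p was 0.0478.

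**Figure D3:**
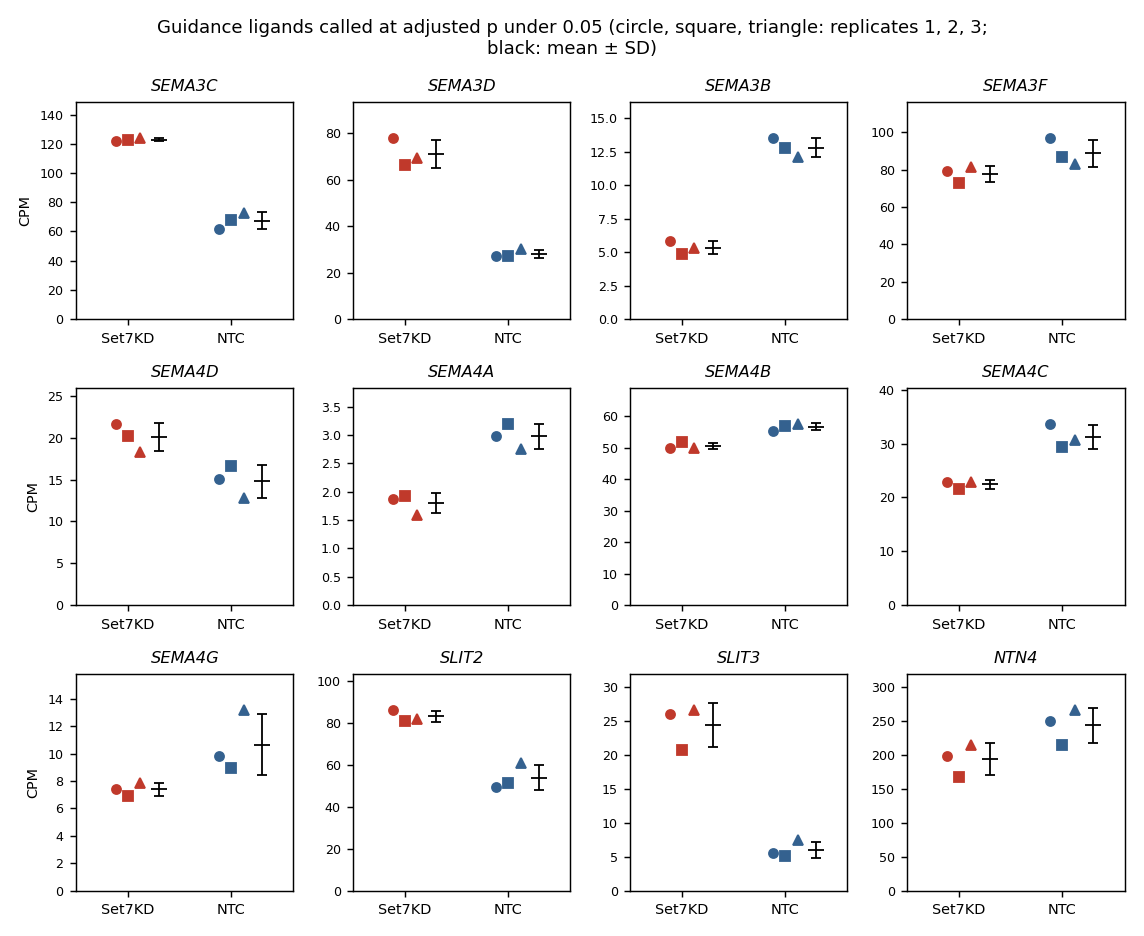
CPM of the 12 called guidance ligands in each library, Set7KD in red and NTC in blue, with mean ± SD in black (n = 3 per group); each vertical axis starts at 0. The groups are separate for every ligand drawn except NTN4, with the widest gaps for SLIT3, SEMA3D and SEMA3B.

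On the receptor side the class A plexins, the signalling partners of neuropilins, gave the largest single change. PLXNA4 (ENSG00000221866.5), a receptor for class 3 and class 6 semaphorins, had 10.3, 7.42 and 14.0 CPM in Set7KD, against 1.35, 1.32 and 1.64 CPM in NTC. All NTC libraries lay below 2 CPM (23, 22 and 28 counts) and all Set7KD libraries above 7 CPM. The Set7KD libraries themselves were well spread. The fold was 7.33 (log2 fold change 2.87 ± 0.26, SE; adjusted p 1.2e-05). PLXNA3 (ENSG00000130827.5) fell, with 35.5, 30.0 and 39.9 CPM in Set7KD, against 48.6, 48.4 and 45.6 CPM in NTC. Its groups were separate (log2 fold change -0.43 ± 0.09, SE; adjusted p 0.00143), and without both replicate 1 libraries the adjusted p was 0.0506.

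PLXNA2 narrowly missed the threshold. Its libraries held 176, 129 and 189 CPM in Set7KD, against 119.8, 117 and 99.4 CPM in NTC. Set7KD replicate 2 was closest to NTC, though still above it, and the log2 fold change was 0.56 ± 0.17 (SE; adjusted p 0.053). Without that library the adjusted p was 8.97e-06, and it was below 0.05 also with relative log expression, upper-quartile scaling, DESeq2, limma-voom or the stricter count filter; with the block it was 0.147. PLXNA1 averaged 112 ± 10.8 CPM in Set7KD and 100.5 ± 10.4 CPM in NTC (SD, n = 3 each; adjusted p 0.187), with overlapping groups; with the block its adjusted p was 0.0123, and without Set7KD replicate 2 it was 0.0348. Summed over the 4 genes, class A plexins stood at 266 to 361 CPM in Set7KD and 255 to 273 CPM in NTC, ranges that overlap.

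Of the other plexins 1 fell and 4 were not called. PLXNB2 (ENSG00000196576.10), a receptor for class 4 semaphorins and the most abundant plexin here, had 389, 366 and 369.8 CPM in Set7KD, against 503, 502 and 446 CPM in NTC. Every Set7KD library was lower than any NTC library, and the log2 fold change was -0.37 ± 0.06 (SE; adjusted p 0.000161). PLXNB1, the receptor of SEMA4D, stood at 54.5 ± 2.76 CPM in Set7KD and 51.2 ± 2.42 CPM in NTC (SD, n = 3 each; adjusted p 0.316). Thus the ligand SEMA4D was called and its receptor was not, while both SEMA4C and its receptor PLXNB2 were lower. PLXND1, the plexin of endothelial cells that binds SEMA3E, had 205, 160.3 and 198 CPM in Set7KD, against 169, 162 and 152 CPM in NTC. Set7KD replicate 2 lay inside the NTC range, and the log2 fold change was 0.22 ± 0.08 (SE, adjusted p 0.0588). Without that library the adjusted p was 0.000341, and with the block 0.0204. It was below 0.05 also with relative log expression (0.0478), upper-quartile scaling (0.0467) or DESeq2 (0.03565).

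PLXNC1, the receptor of SEMA7A, averaged 8.86 ± 1.41 CPM in Set7KD and 11.2 ± 1.17 CPM in NTC (SD, n = 3 each; adjusted p 0.0544). It passed with the block (0.0166) and without Set7KD replicate 2 (0.0111). PLXNB3 was at 8.79 ± 1.37 CPM in Set7KD and 11.0 ± 1.4 CPM in NTC (adjusted p 0.068), and passed without NTC replicate 3 (0.0302) or Set7KD replicate 3 (0.022). PLXNB3 shares 1432 exon bases on the same strand with SRPK3, which stood at 3.71 CPM in Set7KD and 3.79 CPM in NTC, so its count is uncertain to that extent.

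The 3 ROBO genes with a row were all called, in different directions. ROBO1 (ENSG00000169855.15), the main slit receptor, had 104, 118 and 98.4 CPM in Set7KD, against 73.5, 80.7 and 78.6 CPM in NTC. All Set7KD libraries were higher, at a log2 fold change of 0.46 ± 0.07 (SE; adjusted p 8.98e-05). ROBO4 (ENSG00000154133.9), the endothelial ROBO that is known to stabilise vessels and to bind UNC5B, had 26.1, 25.3 and 22.4 CPM in Set7KD, against 43.6, 42.4 and 31.1 CPM in NTC. NTC replicate 3 was the lowest of its group and still above Set7KD (log2 fold change -0.66 ± 0.12, SE; adjusted p 0.00204; 0.0509 without both replicate 2 libraries). ROBO3 (ENSG00000154134.10), which in mammals has lost slit binding and acts in commissural axons, had 23.6, 23.7 and 23.8 CPM in Set7KD, against 32.9, 36.4 and 34.2 CPM in NTC. Its Set7KD libraries were nearly equal and below all NTC libraries (log2 fold change -0.54 ± 0.07, SE; adjusted p 4.47e-05).

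Per kilobase, ROBO1 was 2.59, 3.0 and 2.84 times as abundant as ROBO4 in the Set7KD libraries, against 1.09, 1.23 and 1.64 times in the NTC libraries. The ranges of this ratio did not overlap. The antisense row RP11-664I21.5 shares 744 exon bases with ROBO4. It was lower too, at 1.84 CPM in Set7KD and 3.42 CPM in NTC (adjusted p 0.00866). A second antisense row over ROBO4, RP11-664I21.6, shares 448 exon bases and was not called (adjusted p 0.0583). Were counting blind to strand, which is not given, reads in the shared bases could not be told apart from those of ROBO4. Of the other endothelial genes listed as markers, CDH5 (119 ± 11.4 CPM in Set7KD and 206 ± 32.1 CPM in NTC) and TIE1 (87.3 ± 3.48 CPM in Set7KD and 144 ± 6.74 CPM in NTC) were also lower, while TEK (58.8 ± 6.41 CPM in Set7KD and 45.1 ± 2.08 CPM in NTC) and KDR (27.8 ± 3.39 CPM in Set7KD and 17.3 ± 3.63 CPM in NTC) were higher (SD, n = 3 each).

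The netrin receptors moved apart. UNC5B (ENSG00000107731.8), a repulsive receptor of endothelial tip cells, had 37.6, 27.7 and 35.6 CPM in Set7KD, against 19.9, 19.0 and 16.9 CPM in NTC. All Set7KD libraries were higher, and the fold was 1.81 (log2 fold change 0.86 ± 0.11, SE; adjusted p 5.33e-05). UNC5A (ENSG00000113763.6), mainly a neuronal receptor, was counted 11, 2 and 4 times in the Set7KD libraries, against 19, 20 and 18 times in the NTC libraries. These are the lowest counts of any member. The groups were separate, with a log2 fold change of -1.67 ± 0.41 (SE; adjusted p 0.00506). Its size rests on single libraries: it was -2.55 without Set7KD replicate 1 (adjusted p 0.00112) and -1.28 without Set7KD replicate 2 (0.021).

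**Figure D4:**
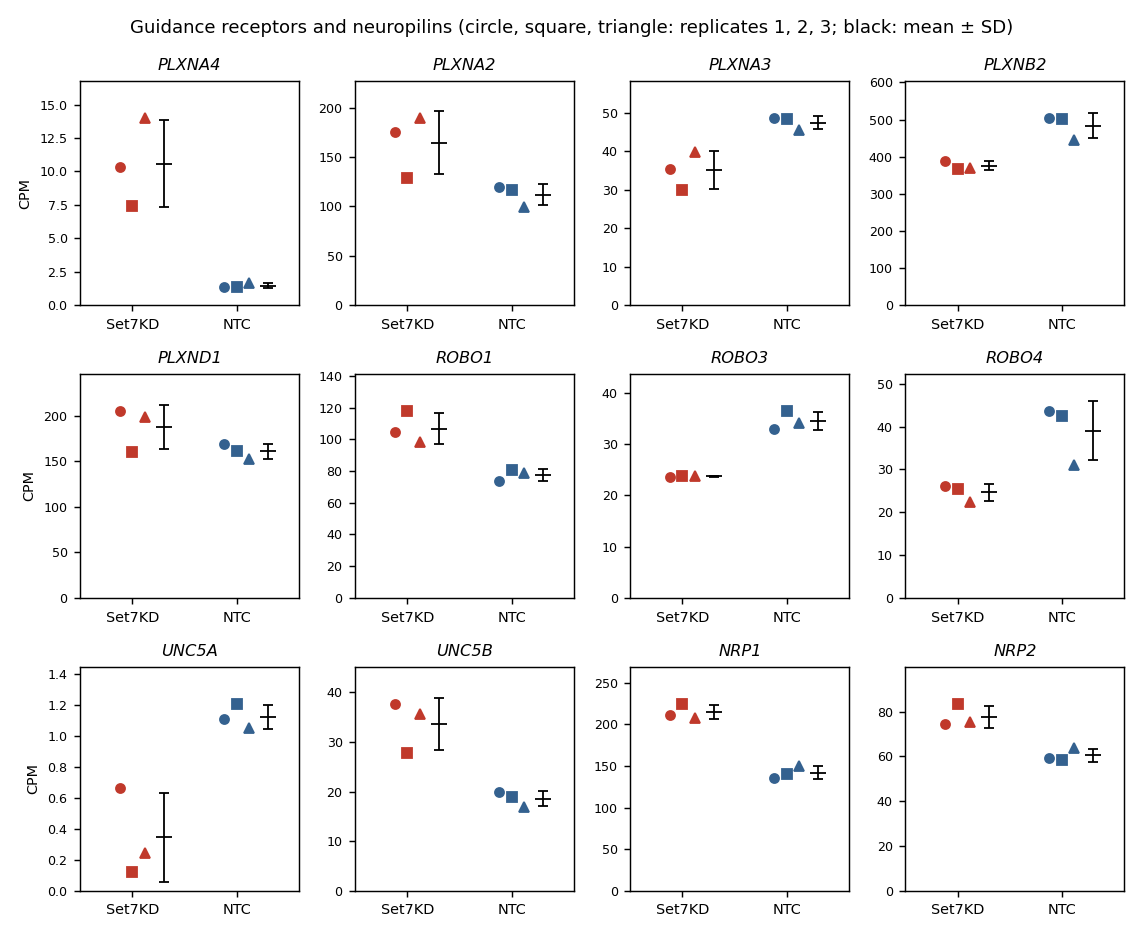
CPM of 10 guidance receptors and the 2 neuropilins in each library, Set7KD in red and NTC in blue, with mean ± SD in black (n = 3 per group); each vertical axis starts at 0. PLXNA2 and PLXND1, drawn beside the called receptors, were not called in the edgeR fit of all 6 libraries with TMM scaling. Both passed with relative log expression, upper-quartile scaling or DESeq2. They also passed without Set7KD replicate 2 (square), as did PLXNA1 and PLXNC1, which are not drawn. The groups are separate in every panel except PLXND1.

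Among the srGAP rows, which bind the tails of ROBO receptors, SRGAP1 (ENSG00000196935.4) was called. It had 60.7, 58.3 and 62.0 CPM in Set7KD, against 49.9, 53.7 and 55.6 CPM in NTC. The groups were separate by a small margin (log2 fold change 0.18 ± 0.06, SE; adjusted p 0.0309), and the call was lost without NTC replicate 1 (0.157), NTC replicate 2 (0.0563), Set7KD replicate 1 (0.0884) or Set7KD replicate 3 (0.0903). SRGAP2 stood at 109 ± 2.62 CPM in Set7KD and 110.2 ± 2.24 CPM in NTC (SD, n = 3 each; adjusted p 0.834). Its partial human copies SRGAP2B and SRGAP2C, at 20.4 and 2.89 CPM in Set7KD and at 19.3 and 2.38 CPM in NTC, were not called (adjusted p 0.597 and 0.267). The 3 SRGAP2 rows are near-identical in sequence, so how reads were split among them is uncertain. SRGAP3 averaged 4.55 ± 0.85 CPM in Set7KD and 6.4 ± 1.82 CPM in NTC (adjusted p 0.0821). With the block its adjusted p was 0.0102, and without NTC replicate 3 it was 0.0101; it shares 212 exon bases with THUMPD3 on the other strand, which was higher, at 60.5 CPM in Set7KD and 51.4 CPM in NTC.

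The neuropilins, co-receptors that hold class 3 semaphorins and VEGF, both rose. NRP1 had 212, 224 and 208 CPM in Set7KD, against 135, 140.5 and 150.3 CPM in NTC (log2 fold change 0.60 ± 0.06, SE; adjusted p 1.45e-06). NRP2 had 74.5, 83.3 and 75.3 CPM in Set7KD, against 59.2, 58.3 and 63.8 CPM in NTC (log2 fold change 0.36 ± 0.06, SE; adjusted p 0.000406). For both genes all Set7KD libraries lay above all NTC libraries.

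With the neuropilins included, 54 partners of these pathways were listed. Of these, 49 were tested, and 5, DCC among them, had no row under their symbol in the count table. Of the 49, 18 were higher, NRP1 and NRP2 among them, and 9 lower (22 higher and 11 lower with the replicate block), with a median log2 fold change of 0.11, against -0.01 over all tested genes; 55.1% were called, against 36.2% of all genes. Their median level was 119 CPM, far above that of all genes. The other higher ones include regulators of actin, some of them downstream of plexins or netrin receptors. MICAL2, a monooxygenase that takes actin filaments apart, stood at 379 ± 34.9 CPM in Set7KD and 229.6 ± 12.6 CPM in NTC (SD, n = 3 each). Its log2 fold change was 0.72 (adjusted p 1.93e-06). MICAL1 followed at 43.0 ± 6.05 CPM in Set7KD and 32.8 ± 3.02 CPM in NTC (0.39, adjusted p 0.00933).

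ENAH and VASP, which lengthen actin filaments, had log2 fold changes of 0.48 and 0.49. The GTPases CDC42 and RHOA were at 0.40 and 0.18, the kinase PAK1 at 0.30, and FARP2, an exchange factor that binds class A plexins, at 0.24. DPYSL2, the collapsin response mediator of SEMA3A signalling, was at 0.16. The rest were MET (0.51), a receptor kinase that pairs with class B plexins, the integrin subunits ITGA1 (0.58) and ITGB1 (0.23), through which SEMA7A can act, DAG1 (0.33), the dystroglycan that binds slits, MAGED1 (0.29), RGMB (0.17), a ligand of neogenin, and ADAM10 (0.16), a protease of ROBO and other receptors. Each of these passed the edgeR test.

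The 9 lower partners were of several kinds. DPYSL3, a relative of DPYSL2, stood at 61.9 ± 3.58 CPM in Set7KD and 102 ± 4.86 CPM in NTC (SD, n = 3 each; log2 fold change -0.72, adjusted p 5.87e-07). NEO1, the gene of the netrin and RGM receptor neogenin, had 15.2 ± 1.78 CPM in Set7KD and 20.9 ± 0.32 CPM in NTC (-0.46, adjusted p 0.00161). The exchange factors ARHGEF12, which binds class B plexins, and DOCK1 had log2 fold changes of -0.29 and -0.41. RND1, a GTPase that binds plexin tails, was at -0.88 with 1.12 CPM in Set7KD and 2.07 CPM in NTC, RRAS, a GTPase that plexins switch off, at -0.26, ABL1 at -0.22, ERBB2 at -0.18 and ARHGAP39 at -0.40.

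Read by pathway, the called members, with the neuropilins and NEO1 but without the other partners, stood as follows. On the class 3 axis SEMA3C, SEMA3D, NRP1, NRP2 and PLXNA4 were higher and SEMA3B, SEMA3F and PLXNA3 lower. On the class 4 axis SEMA4D was higher, and SEMA4A, SEMA4B, SEMA4C, SEMA4G and PLXNB2 were lower. On the slit axis SLIT2, SLIT3, ROBO1 and SRGAP1 were higher and ROBO3 and ROBO4 lower. On the netrin axis UNC5B was higher, and NTN4, UNC5A and NEO1 were lower. The calls of SEMA3F, SEMA4B, SRGAP1 and NTN4 were lost on leaving out single libraries.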

How the data were processed

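RNA from HMEC-1 cells was poly-A selected on Dynabeads and sequenced, per the labels' protocols, as 3 Set7KD and 3 NTC libraries; groups and replicate numbers are those of the sample titles. The authors deposited whole-number read counts per gene, without normalization. BWA, bedtools and build hg19 are listed in the submitters' processing notes; versions, strand and the handling of multiple matches are not given in the sources used here. The row of reads outside annotated genes (55.6 to 56.1% of each library) was left out. No gene in the table has under 60 counts in all.

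The quasi-likelihood test of edgeR 4.0.16 (R 4.3.3) was fitted to all genes after its default expression filter and TMM scaling, with robust estimation. Benjamini-Hochberg adjustment was over 18482 genes, with calls at an adjusted p under 0.05. The procedure was run on simulated data drawn with few changed genes and without a replicate effect. The outcome is not given here, and that run does not cover the pairing described below. CPM use TMM-scaled library sizes, and a standard error is the absolute log2 fold change over the square root of F. Called members are given with every library, uncalled ones with means. The members, the partner and marker lists were chosen with earlier results of these data known. As a check of pairing, each library's deviation from its group mean was correlated across 11151 genes averaging 10 CPM or more. Same-numbered libraries gave 0.304, 0.421 and 0.341, each over 0.1, and were therefore treated as pairs in an alternative fit with the number as a block; values in the text are from the fit without the block unless it is named. This pairing comes from the data, since the labels do not say what a number stands for. The alternatives tried were scaling by relative log expression or upper quartile, no filter or at least 50 counts, the replicate block, DESeq2 1.42.0, limma-voom (limma 3.58.1), a minimum fold of 1.2, an adjusted p under 0.01 and libraries left out singly or by number. Exon lengths and overlaps are from GENCODE 29 (GRCh38), used by identifier only; 10 members share exon bases with another row. Libraries of a group differed beyond counting noise (chi-square per degree of freedom 2.95 to 9.77), and the common biological coefficient of variation was 0.0688.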

Additional observations from a re-analysis of the deposited data

How the results depend on the processing

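Of the 21 called members, 11 kept the call in every alternative run: SEMA3B, SEMA3C, SEMA3D, SEMA4C, SLIT2, SLIT3, PLXNA4, ROBO1, ROBO3, UNC5A and UNC5B, where UNC5A could not be fitted under the filter of at least 50 counts. The other 10 lost it at least once, and 17 of the 21 kept it in each of the 6 single-library omissions. Of the 16 uncalled members 9 passed at least once. Reversed signs were all of uncalled members near 0. With libraries left out, the log2 fold change of SEMA4F ranged between -0.07574 and 0.04295 (0.03139 without both replicate 1 libraries, 0.007597 without both replicate 2 libraries) and that of SEMA3A between -0.04815 and 0.1384 (0.1123 without Set7KD replicate 3 and -0.0467 without both replicate 2 libraries). That of SRGAP2 was 0.00381 without both replicate 1 libraries.

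Higher and lower ligands were 5 and 7; with libraries left out lower ligands numbered 2 to 8. Receptors were 3 higher and 5 lower, and higher receptors numbered 5 with relative log expression, upper-quartile scaling, DESeq2 or the replicate block, and 3 to 6 with libraries left out. An adjusted p under 0.01 left 4 lower ligands, 0 higher srGAP rows, and 12 higher and 5 lower partners. The test against a fold of 1.2 left 4 higher and 3 lower ligands, 3 lower receptors, 0 higher srGAP rows, and 7 higher and 2 lower partners. DESeq2 left 6 lower ligands, 0 higher srGAP rows and 6 lower partners. The block gave 6 higher and 8 lower ligands, 6 lower receptors and 1 lower srGAP row. With libraries left out, higher srGAP rows numbered 0 to 1, lower srGAP rows 0 to 1, higher partners 9 to 18 and lower partners 4 to 9.

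Over all members the replicate block called 27 (12 higher, 15 lower), while calls over all genes went up as well, to 42.8%. It took away no member's call. Without both replicate 1 libraries 13 members were called (7 higher, 6 lower), while 16.1% of all genes were. Members under 5 CPM rest on few counts.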
